A study of Mus musculus with 10 samples.

Results

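The genes described here encode 41 receptors for chemoattractants and lipid mediators, out of 21883 protein-coding genes examined in mouse bone marrow-derived macrophages. They were listed by name: 10 CC chemokine receptors, 7 CXC, CX3C and XC receptors, 4 atypical receptors, 3 leukotriene, 7 prostanoid, 5 complement and formyl peptide, and 5 sphingosine 1-phosphate receptors. Each gene was measured over its annotated body with 5 kb on either side, called its window. The measure was trimethylation of lysine 27 of histone H3 (H3K27me3), mapped by chromatin immunoprecipitation and sequencing.

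The receptors are nearly all G protein-coupled proteins of the cell surface. Chemokine, leukotriene B4, complement and formyl peptide receptors couple mainly to inhibitory G proteins and steer leukocytes up a gradient of ligand, while atypical chemokine receptors bind chemokines without that signal and clear or transport them. Prostanoid and sphingosine 1-phosphate receptors tune inflammation, vessel tone and the exit of lymphocytes from tissue. H3K27me3 is deposited by Polycomb repressive complex 2, spreads over broad domains and marks genes held silent in a given cell type.

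There were 10 libraries from C57BL/6 mice. KO cells were Eif2ak3 fl/fl x LysMcre, in which the gene of the stress kinase PERK is floxed and Cre is driven by the lysozyme M gene of myeloid cells. WT cells were Eif2ak3 fl/fl, so both genotypes carried the floxed alleles and only KO cells carried Cre. Marrow cells grew for 7 days in 20 ng/ml M-CSF, the macrophage growth factor, and were then given 20 ng/ml IL-4 for 24 h (M2), 20 ng/ml LPS with 50 ng/ml interferon-gamma for 24 h (M1), or no stimulus (M0). M2 and M1 had 2 libraries per genotype, called biological replicates in the design text. M0 had 1 library per genotype, so its values stand without a replicate and were not tested alone. The M0 pair entered only the comparison of KO and WT over all 10 libraries. The loss of PERK itself cannot be read from lists of H3K27me3 regions. In such bulk samples, fewer cells with the mark at a gene and less mark per cell cannot be told apart.

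Libraries held 12.6 to 20.9 megatags, and 32320 to 39658 regions of enrichment had been called in each, covering 157 to 251 Mb. WT M2 replicate 1 stood apart: 41.3% of its tags lay in regions, against 45.0% to 64.1% in the other 9, and 30.9% of its X chromosome was covered. WT M1 replicate 1 had 18.3% of X covered, and the other 8 libraries 0.402% to 0.579%; the labels give no sex of the mice. None of the 41 genes lies on X. The M0 libraries had estimated fragments of 372 bp (KO) and 352 bp (WT), against 178 to 190 bp in M2 and M1. Of 10 macrophage markers, 6 had no region in their window in any library (Csf1r, Adgre1, Itgam, Spi1, Lyz2 and Cd68). All 7 T and NK cell markers and all 5 stromal and epithelial markers had one in all 10 libraries, as did 3 of 5 B cell, 2 of 6 neutrophil and 2 of 4 dendritic markers, and the 5 constitutive genes had none in any.

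The 250 bases before the gene start are shown for 5 receptors, because they stand for the different ways in which the regions met these promoters. The sequences come from RefSeq (build GRCm38.p6, the build of mm10) and are written 5′ to 3′ on the strand of the gene, with each CG dinucleotide in capitals. The promoters of S1pr5 (chr9:21248444-21248693, minus strand, 22 CG), a sphingosine 1-phosphate receptor of natural killer cells and patrolling monocytes, and of Ptgdr (chr14:44859376-44859625, minus strand, 2 CG), a prostaglandin D2 receptor, lay wholly under a region in all 10 libraries. The promoter of Ackr2 (chr9:121898105-121898354, plus strand, 2 CG), a scavenger of inflammatory CC chemokines, was touched in 6 libraries. Those of Ptger4 (chr15:5244188-5244437, minus strand, 19 CG), the EP4 receptor of prostaglandin E2, and of Ltb4r1 (chr14:55765712-55765961, plus strand, 3 CG), the high-affinity leukotriene B4 receptor, were touched in none.
S1pr5: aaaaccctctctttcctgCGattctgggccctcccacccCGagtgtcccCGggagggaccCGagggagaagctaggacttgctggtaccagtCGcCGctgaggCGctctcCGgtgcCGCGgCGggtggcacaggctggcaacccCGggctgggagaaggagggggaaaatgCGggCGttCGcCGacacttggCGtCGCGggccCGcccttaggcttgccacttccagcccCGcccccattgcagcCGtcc
Ptgdr: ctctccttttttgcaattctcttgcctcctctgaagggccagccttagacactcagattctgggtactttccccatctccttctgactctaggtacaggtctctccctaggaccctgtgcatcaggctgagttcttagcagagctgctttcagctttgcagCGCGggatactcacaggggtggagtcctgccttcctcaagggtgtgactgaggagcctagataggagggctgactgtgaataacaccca
Ackr2: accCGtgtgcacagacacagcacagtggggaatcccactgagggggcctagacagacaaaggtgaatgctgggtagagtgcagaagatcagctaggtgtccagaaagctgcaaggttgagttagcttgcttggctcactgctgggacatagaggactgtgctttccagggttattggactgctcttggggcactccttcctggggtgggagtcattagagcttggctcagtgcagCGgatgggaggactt
Ptger4: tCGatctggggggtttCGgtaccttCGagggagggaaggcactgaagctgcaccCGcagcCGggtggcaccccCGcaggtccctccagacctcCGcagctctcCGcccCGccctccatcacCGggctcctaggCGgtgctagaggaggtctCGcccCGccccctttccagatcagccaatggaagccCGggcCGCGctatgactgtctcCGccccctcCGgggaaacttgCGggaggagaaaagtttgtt
Ltb4r1: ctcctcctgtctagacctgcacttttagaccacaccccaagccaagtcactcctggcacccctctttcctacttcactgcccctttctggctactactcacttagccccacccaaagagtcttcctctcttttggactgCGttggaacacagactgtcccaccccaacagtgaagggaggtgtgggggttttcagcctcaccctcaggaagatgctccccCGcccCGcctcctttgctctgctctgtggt

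A promoter sequence was matched for 35 of the 41 receptors, and where a gene had several starts, the first listed was taken. At Ccr4 and Ccr3 that start lies 8.93 and 4.15 kb inside the annotated body, so their 250 bases are part of the body. In 6 of the 35 the promoter was touched by a region in all 10 libraries and was wholly covered in all of them. These were Ackr3, Ptger3, Ptgdr, Ptgfr, S1pr3 and S1pr5. Among the 17491 protein-coding genes with such a sequence, 17.5% were touched in all 10. No library had a region over the promoter in 22 of the 35, against 67.0% of all promoters, so both shares lay near those of all genes. The motif searched was CG, which reads the same on both strands, and 92.7% of all promoters hold at least 1. The 6 promoters under a region in all libraries held 2 to 22 CG (median 9.5), and the 22 under none held 0 to 19 (median 3). Over all genes the medians were 13 and 10. As the 5 sequences show, CG-rich promoters stood on both sides: Ptger3 had 21 CG and S1pr5 22 CG with a region in all 10 libraries, while Cxcr4 had 19 CG, Ptger4 19 CG and S1pr2 14 CG with none.

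**Figure D1:**
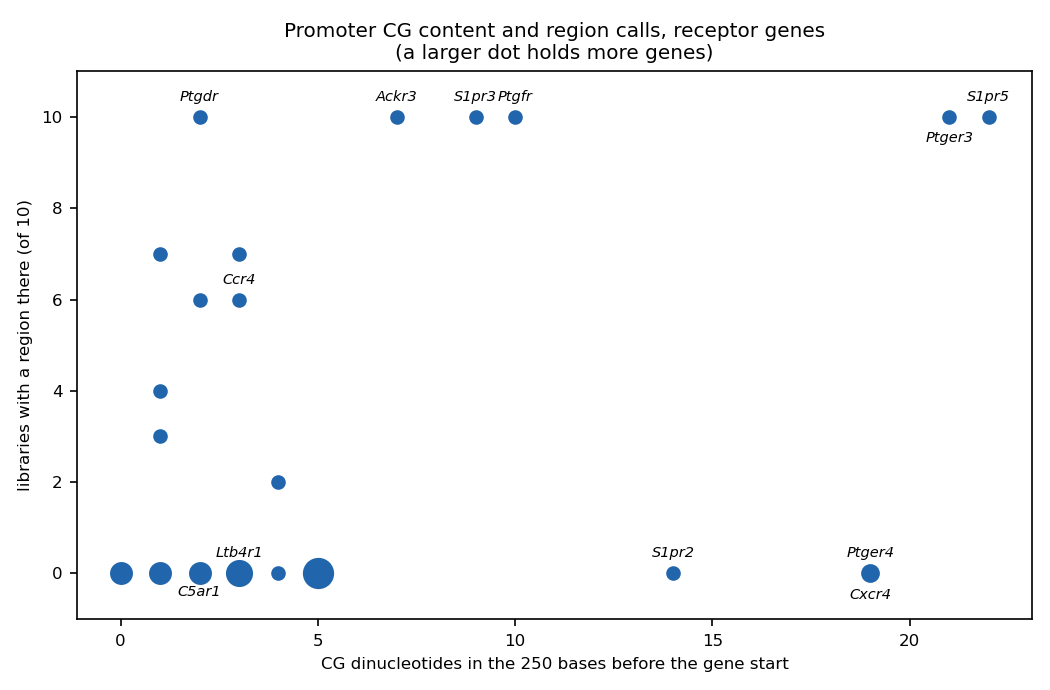
The number of CG dinucleotides in the 250 bases before the gene start (horizontal axis) is plotted against the number of the 10 libraries with a called region there (vertical axis), for the 35 receptor genes with a sequence; a larger dot holds more genes. Genes with 10 libraries run from Ptgdr with 2 CG to S1pr5 with 22 CG, and genes with 0 libraries from 0 to 19 CG.

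The 41 receptors fell into a group that was free of regions everywhere and a group that was covered to a varying degree. A region touched the window of 24 of the 41 in at least 1 library, against 56.2% of all genes, and of 14 in all 10 libraries, against 32.4% of all genes. Both shares lay close to the background. At least 50% of the window was covered in all 10 libraries in S1pr5 alone, against 7.51% of all genes, and in at least 1 library in 10 receptors, against 19.6%.

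By role, 5 of 10 CC receptors were touched in at least 1 library and 4 in all 10: Ccr4, Ccr7, Ccr8 and Ccr10, all known mainly from lymphocytes or dendritic cells. The 5 touched in none were Ccr1, Ccr2, Ccr3, Ccrl2 and the gut-homing receptor Ccr9. Among CXC, CX3C and XC receptors 5 of 7 were touched, but only Cxcr4, the receptor of CXCL12, in all 10. All 4 receptors listed here as atypical, Ackr1, Ackr2, Ackr3 and Ackr4, were touched in at least 1 library, and Ackr1 and Ackr3 in all 10. Both leukotriene B4 receptors, Ltb4r1 and Ltb4r2, were touched in all 10, and the cysteinyl leukotriene receptor Cysltr2 in none. Of the 7 prostanoid receptors 4 were touched, with Ptger3, Ptgdr and Ptgfr in all 10. Of the 5 sphingosine 1-phosphate receptors 4 were touched, with S1pr3 and S1pr5 in all 10. None of the 5 complement and formyl peptide receptors, C3ar1, C5ar1, C5ar2, Fpr1 and Fpr2, which detect complement fragments and bacterial peptides, was touched in any library.

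**Figure D2:**
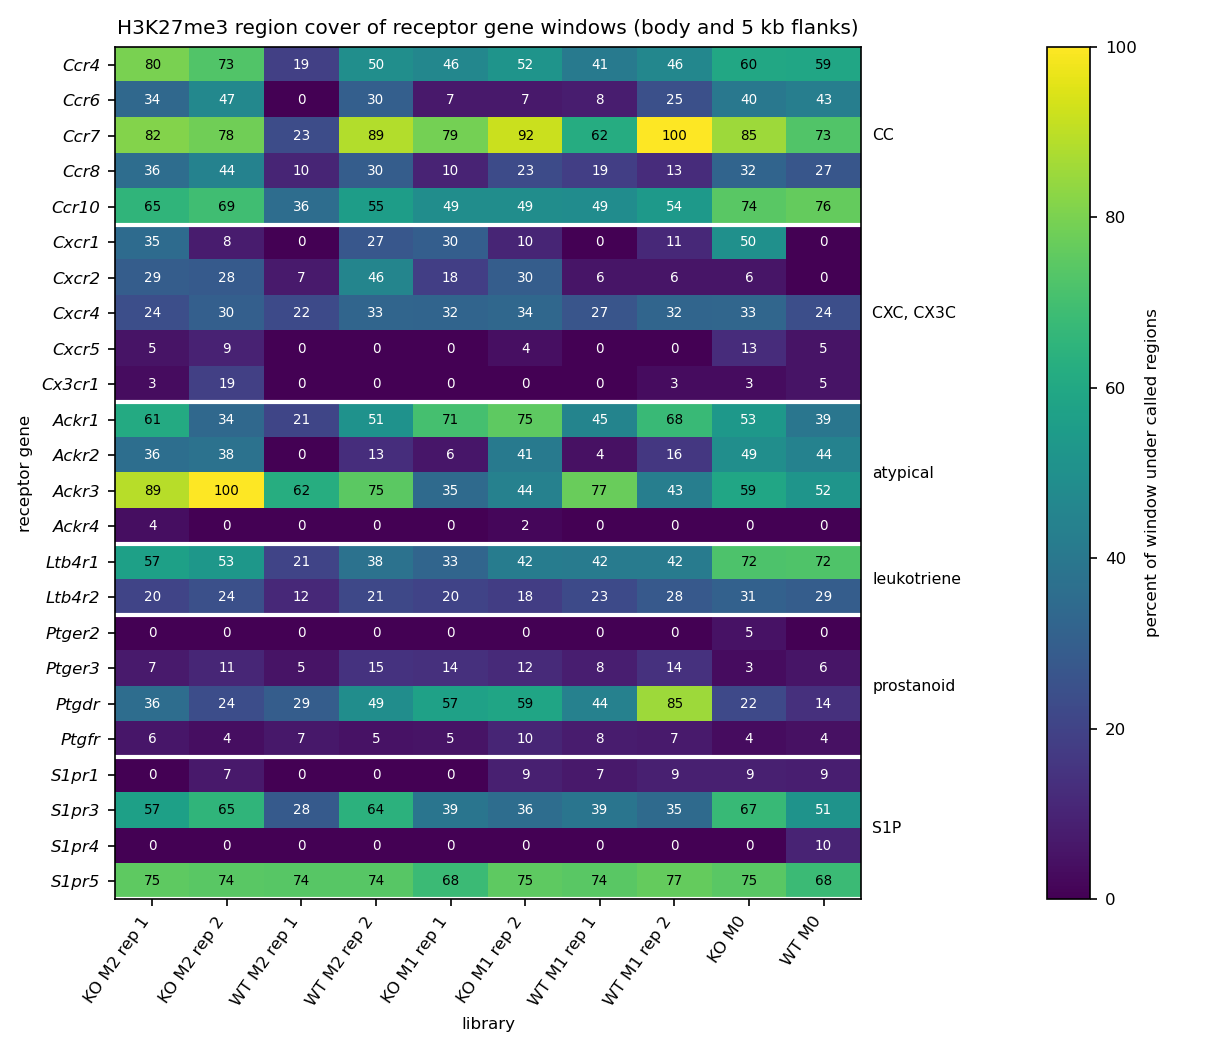
Percent of the window (gene body with 5 kb flanks) under called H3K27me3 regions, printed in each cell and coloured from 0 to 100, for the 24 receptors touched in at least 1 library (rows, by role) in the 10 libraries (columns). S1pr5 stayed between 68.1% and 76.5%, while Ccr4, Ackr2 and Ccr6 had their lowest values in WT M2 replicate 1.

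The same 17 receptors without a region in the window had none within 10 kb of the body in any library, against 35.5% of all genes. They include receptors by which monocytes and macrophages are classically recruited, Ccr1, Ccr2 and the complement and formyl peptide receptors. They also include Xcr1, listed among the dendritic markers, and Ccr9, a receptor for homing to the gut. Cx3cr1, a receptor of monocytes and resident macrophages, is not among them and was touched in 5 libraries. Of the 17, 6 lie side by side on chromosome 9 in the chemokine receptor cluster (Ccr9, Cxcr6, Xcr1, Ccr1, Ccr3 and Ccr2, chr9:123767211-124109140, a span of 342 kb). No library had a region inside that span, and the stretch free of regions around it ran from 507 to 576 kb. Ccr1, Ccr2, Ccr3 and Xcr1 had no region within 100 kb in any library, against 13.5% of all genes.

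On the Ccr9 side of the cluster the nearest region differed among libraries. Ccr9, a receptor for homing to the gut, had its nearest region at 85.1 and 86.6 kb in KO M2 libraries and at 86.2 and 27.9 kb in WT M2 libraries. The distance was 28.1 and 25.7 kb in KO M1 libraries, 29.6 and 27.9 kb in WT M1 libraries, 86.7 kb in KO M0 and 87.0 kb in WT M0. A nearer region was thus called in all 4 M1 libraries and in WT M2 replicate 2, so that M2 and M1 overlapped. Cxcr6 and Xcr1, its neighbours, shifted in the same 5 libraries. Distances varied little at 3 other receptors: 44.2 to 44.9 kb for C3ar1, 10.8 to 11.3 kb for Ptgir, the prostacyclin receptor, and 54.8 to 55.5 kb for S1pr2. Ptger4 was at 141 and 148 kb in KO M2 and at 148 kb in both WT M2 libraries. It was at 145 and 61.1 kb in KO M1, at 148 and 61.9 kb in WT M1, at 141 kb in KO M0 and at 125 kb in WT M0.

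**Figure D3:**
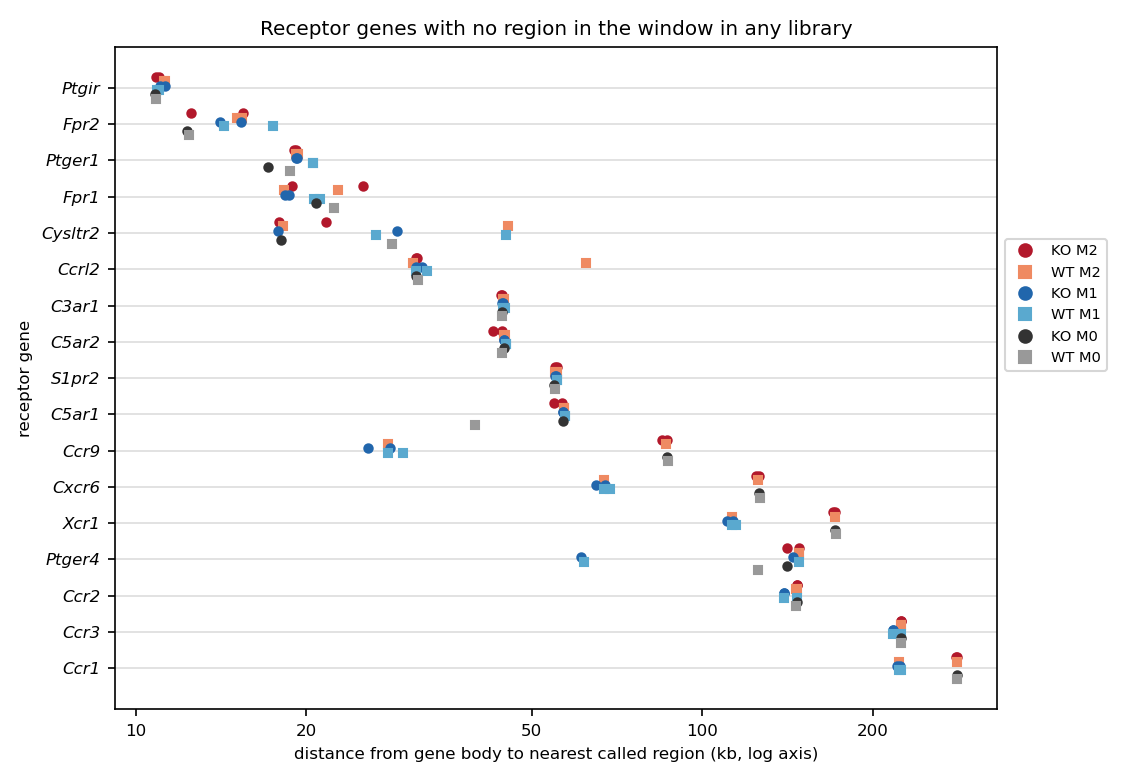
Distance from the gene body to the nearest called region (horizontal, kb, log axis) for the 17 receptors with no region in the window; each point is 1 library, circles KO and squares WT, coloured by state. Ptgir lies nearest, at 10.8 to 11.3 kb, and Ccr1 farthest, at 221 to 282 kb; at Ccr9 the 4 M1 libraries and 1 WT M2 library lie between 25.7 and 29.6 kb.

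S1pr5 (chr9:21242917-21248443) was the most evenly covered receptor. Its window cover was 75.3% and 74.5% in KO M2, 74.2% and 74.2% in WT M2, 68.3% and 75.1% in KO M1, 74.4% and 76.5% in WT M1, 74.6% in KO M0 and 68.1% in WT M0. The body was covered in full in all 10 libraries. The tags within the regions, normalised to 10 megatags and given per kb of window, were 40.1 and 50.9 in KO M2, 26.0 and 36.6 in WT M2, 25.6 and 27.7 in KO M1 and 27.9 and 24.3 in WT M1. Both M0 values were higher, 75.8 in KO M0 and 96.1 in WT M0, but tags were denser over all regions in those libraries too: 36.3 and 39.9 per kb of region, against 17.8 to 28.6 in M2 and M1. Per kb of window, S1pr5 had the highest tag density of the 41 receptors in each of the 10 libraries. Per kb under regions, Ptger3 was above it in 3 of them, KO M0, WT M0 and WT M2 replicate 1.

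Ccr7, the receptor that guides mature dendritic cells to lymph nodes, was widely covered except in 1 library. Its window cover was 81.6% and 78.3% in KO M2, 23.1% and 88.7% in WT M2, 79.0% and 92.1% in KO M1, 62.0% and 100.0% in WT M1, 85.3% in KO M0 and 72.9% in WT M0. WT M2 replicate 1 was thus far below the rest. Cxcr4 varied less, between 22.3% and 33.5% over the 10 libraries, and its promoter lay outside the regions in all of them. Ptger3, the EP3 receptor of prostaglandin E2, ranged from 3.17% to 14.8%, and Ptgfr, the receptor of prostaglandin F2-alpha, from 3.5% to 10.3%.

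At the low end, 4 receptors were touched in a few libraries only or over a small part of the window. Ptger2, the EP2 receptor, had a region in KO M0 alone (4.90%), and S1pr4, a leukocyte receptor, in WT M0 alone (10.1%). Ackr4 had at most 3.63%, in KO M2 replicate 1. S1pr1, on which lymphocyte exit depends, ranged from 0 to 8.92%. Cxcr1, a receptor for ELR-positive CXC chemokines, was uneven across libraries, with 35.1% and 7.74% in KO M2, 0 and 27.1% in WT M2, 29.8% and 10.2% in KO M1, 0 and 11.5% in WT M1, 50.1% in KO M0 and 0 in WT M0.

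The states were compared over the 8 M2 and M1 libraries with limma on window cover across 11397 genes whose cover varied, with genotype as a term and Benjamini-Hochberg adjustment. This left out 19 receptors with no region in any of the 8. No receptor of the 22 tested had an adjusted p under 0.05, 0.00877% of all genes being called higher in M2 and 0% lower. At an unadjusted p under 0.05, 1 receptor was higher in M2 (Ackr3) and 1 lower (Ptgdr), against 3.49% and 3.66% of all genes. M2 and M1 libraries overlapped in window cover in all 22, against 1.07% of genes with M2 wholly above and 2.11% wholly below. The median difference of the 22 was 2.62 percentage points, and that of all genes tested 0.050.

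The largest gaps between the states were at 3 receptors. Ackr3 (chr1:90203980-90215724), the scavenging receptor of CXCL12, had 89.4% and 100.0% in KO M2 and 62.2% and 74.9% in WT M2. In M1 it had 34.7% and 43.9% in KO and 77.1% and 42.9% in WT, and the M0 values were 59.2% in KO and 52.3% in WT. Only WT M1 replicate 1 reached into the range of M2. The M2 mean was 81.6% ± 16.6 and the M1 mean 49.7% ± 18.7 (SD over 4 libraries each), a difference of 31.9 points (SE 12.4, limma adjusted p = 0.678, exact two-sided permutation p = 0.0857). Counting only the upper 50% of each region list by the authors' score, the difference was -14.0 points.

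Ptgdr went the other way in value. Its window cover was 35.7% and 23.7% in KO M2, 29.5% and 49.2% in WT M2, 57.2% and 58.6% in KO M1, 44.0% and 85.2% in WT M1, 21.9% in KO M0 and 13.8% in WT M0. WT M2 replicate 2 and WT M1 replicate 1 were the libraries that overlapped. The difference was -26.7 points (SE 9.72, limma adjusted p = 0.671, exact two-sided permutation p = 0.0571). In tags per kb the states lay close together at Ptgdr, at 9.14 in M2 and 9.99 in M1 on average.

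Ackr1, the Duffy antigen receptor that binds many chemokines, had 61.1% and 33.8% in KO M2, 21.0% and 51.2% in WT M2, 70.6% and 75.2% in KO M1, 45.0% and 67.7% in WT M1, 53.3% in KO M0 and 39.1% in WT M0. The difference between M2 and M1 was -22.8 points (SE 9.69, limma adjusted p = 0.678, exact two-sided permutation p = 0.0857). Cadm3 also reaches into the Ackr1 window. In the KO M1 libraries, regions of 61.4 and 61.5 kb began in the flank and ran on past the window. Over the Ackr1 body alone the difference was -23.1 points (limma adjusted p = 0.77). The smallest p that 4 libraries against 4 allow is 0.0286. None of the 3 gaps passed the adjusted threshold in limma, and none had an exact two-sided permutation p under 0.05.

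In normalised tags per kb of window, tested by limma on log2(tags per kb + 1) over 11756 genes, no receptor of 22 passed the adjusted threshold either, with 0.00851% of all genes called higher in M2 and 0% lower. At an unadjusted p under 0.05, 3 receptors were higher in M2, against 8.69% of all genes, and none lower, against 2.4%. These were Ackr3 (0.87 on the log2 scale, SE 0.29), S1pr3 (0.68, SE 0.27) and S1pr5 (0.49, SE 0.18), each with a limma adjusted p of 0.447. All genes were shifted by a median of 0.165 on the same scale, and the 22 receptors by 0.243.

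The state comparison leaned on WT M2 replicate 1. Without it, Ccr6, Ccr8, Ccr10 and S1pr3 had M2 libraries wholly above M1 in window cover, against 12.9% of genes, and no receptor passed the adjusted threshold in limma. Without it, limma on tags called 5 receptors higher in M2, against 21.7% of 11688 genes: Ackr3, Ccr6, Ccr8, S1pr3 and S1pr5, so the share was like that of all genes. S1pr3, a receptor of vessels and of macrophage migration, had 56.8% and 65.3% in KO M2, 28.3% and 64.1% in WT M2, 38.7% and 35.8% in KO M1, 39.0% and 34.6% in WT M1, 67.5% in KO M0 and 51.3% in WT M0. Apart from WT M2 replicate 1, the M2 and M0 libraries were all at or above 51.3% and the M1 libraries at or below 39.0%. Counting only the upper 50% of each region list by the authors' score turned its M2 minus M1 difference to -9.19 points.

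KO and WT were compared within M2 in a limma fit of the 4 group means. No receptor of 22 passed the adjusted threshold, 0.623% of all genes being called higher in KO M2 and 0.079% lower. At an unadjusted p under 0.05, 4 were higher in KO M2 (Ccr4, Ccr10, Cxcr5 and Ltb4r1), against 7.07% of genes, and none lower, against 2.18%. The 2 KO libraries lay wholly above the 2 WT libraries in 10 of 22, against 26.4% of genes, and wholly below in none, against 10.6%. With means at least 20 points apart as well, KO was above in 7 of 22, against 5.07% of genes, and below in none, against 2%. The 7 were Ccr4, Ccr6, Ccr8, Ccr10, Ackr2, Ackr3 and Ltb4r1, and the other 3 of the 10 were Cxcr5, Cx3cr1 and S1pr5. The median difference was 9.50 points over the 22 receptors and 1.07 over all genes.

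WT M2 replicate 1 was the lowest of the 4 M2 libraries at all 7. With it left out, 2 of the 7 still had means at least 20 points apart (Ccr4 and Ackr2), against 1.29% of genes, with 1 WT library left in the comparison. Without WT M2 replicate 2 instead, so that WT M2 replicate 1 stood alone for WT, 12 receptors did, against 15.9% of genes. In the count of groups that do not overlap, with WT M2 replicate 1 left out, KO lay above the remaining WT library in 10 of 22, against 28.8% of genes, and below in 5, against 31.6%, so that the absence of receptors below was lost. Those 5 were Cxcr2, Cxcr4, Ptger3, Ccr7 and Ptgdr. Among the 7 T and NK markers, KO lay wholly above WT in M2 in 4, against 26.4% of genes: Cd4, Cd8a, Lck and Zap70. It lay below in 1 (Ncr1), against 10.6%. Of the other marker lists tested, stromal and epithelial had 2 of 5 above and none below. The B cell list had 1 above and 1 below of 3 tested, and the macrophage, neutrophil and dendritic lists had none. The summed window cover of the T and NK markers ran from 244, in WT M2 replicate 1, to 401. The part of that library's lower share of tags in regions, and of other cell types, in the gaps between KO and WT was not tested.

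**Figure D4:**
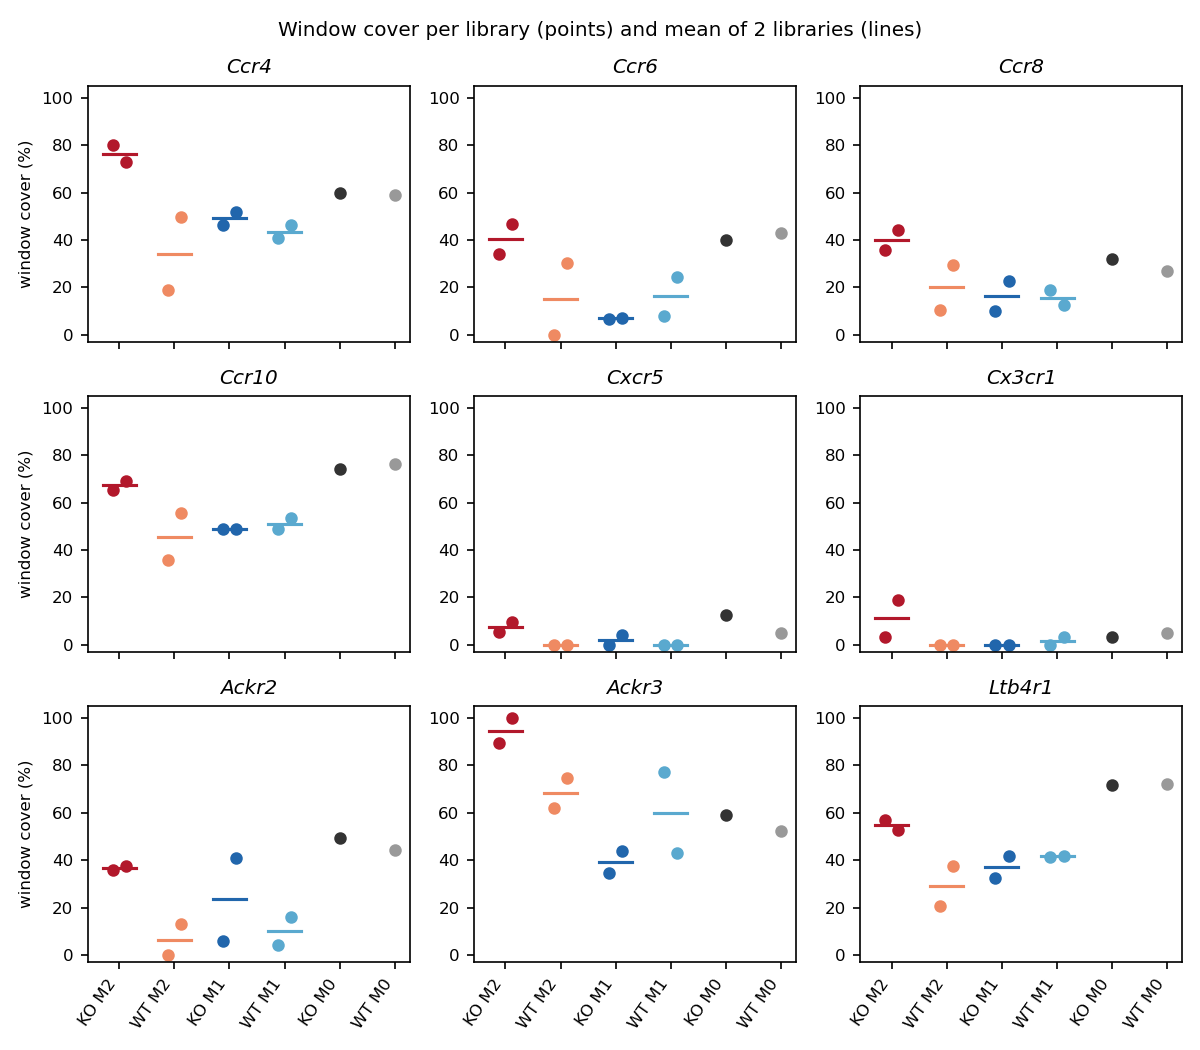
Window cover (percent, vertical axis) of 9 receptors in each library (points), with a line at the mean of the 2 libraries of a group; M0 has 1 library per genotype and no line. In all 9 panels the 2 KO M2 points lie above the 2 WT M2 points, and in M1 the genotypes interleave in most.

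Ccr4 (chr9:114490316-114505476), a receptor of Th2 and regulatory T cells, had the widest gap. Its window cover was 79.9% and 73.0% in KO M2, 18.8% and 49.5% in WT M2, 46.3% and 51.9% in KO M1, 40.7% and 46.3% in WT M1, 60.0% in KO M0 and 59.0% in WT M0. KO lay above WT in all 3 states, by 42.3 points in M2 (SE 10.6, limma adjusted p = 0.328) and 5.59 points in M1 (SE 10.6, limma adjusted p = 1). Over all 10 libraries, with genotype permuted within states, Ccr4 reached the smallest exact two-sided permutation p the design allows, 0.0278, at a difference of 19.3 points (limma adjusted p = 0.632). That p is not adjusted for the 24 receptors tested. The unreplicated M0 pair was permuted too, within the 72 arrangements, and a p this small depends on counting it. Without WT M2 replicate 1 the M2 difference was 26.9 points (limma adjusted p = 0.305). Without WT M2 replicate 2 it was 57.6 points (limma adjusted p = 0.0215), in a fit that called 5.54% of all genes higher in KO M2. In such fits the single library left is assumed to vary like those of the other groups, and here it was the library that stood apart.

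Ltb4r1 (chr14:55765962-55768492) is flanked within 5 kb by Ltb4r2, the low-affinity receptor of leukotriene B4, and the 2 windows share regions; Adcy4 also reaches into its window. Its window cover was 56.8% and 52.9% in KO M2, 20.6% and 37.6% in WT M2, 32.6% and 41.9% in KO M1, 41.5% and 41.8% in WT M1, 71.9% in KO M0 and 72.4% in WT M0. Both KO M2 values were above all 6 other stimulated libraries, and both M0 values were above all of M2 and M1. Over the gene body alone the order was another: 39.5% and 49.7% in KO M2 and 0 and 49.7% in WT M2 lay below all 4 M1 libraries, which had 50.8% and 52.2% in KO and 60.0% and 64.8% in WT. The M2 difference was 25.8 points (SE 6.91, limma adjusted p = 0.368). In M1 it was -4.42, and the difference of the differences was 30.2 points (SE 9.77, limma adjusted p = 0.832). Ltb4r2 ranged from 11.7% to 31.1%.

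Ccr10 (chr11:101172998-101175443), a receptor of skin-homing and mucosal lymphocytes, shares its window with Plekhh3 and Cntnap1. It was covered by 65.5% and 69.3% in KO M2, 35.8% and 55.5% in WT M2, 49.1% and 49.1% in KO M1, 48.8% and 53.7% in WT M1, 74.2% in KO M0 and 76.5% in WT M0. The M2 difference was 21.7 points (SE 7.19, limma adjusted p = 0.481), and -0.169 with only the upper 50% of each region list by score. The authors' deposited table of KO-enriched M2 regions lists 1 region (chr11:101176152-101176552), 0.709 kb from the Ccr10 body. Its log2 fold was 1.33 in the authors' deposited table, at p = 0.00618 and FDR = 0.194. That place was at least 50% under a region in all 10 libraries.

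Ackr2 (chr9:121898355-121911075) had regions at its start and in both flanks, and Cyp8b1 also reaches into its window. Its window cover was 36.1% and 37.8% in KO M2, 0 and 13.0% in WT M2, 5.99% and 40.9% in KO M1, 4.40% and 16.2% in WT M1, 49.3% in KO M0 and 44.3% in WT M0. The promoter shown above was wholly covered in both KO M2 libraries, KO M1 replicate 2 and both M0 libraries, by 22.0% in KO M1 replicate 1, and not at all in the 4 WT M2 and WT M1 libraries. The M2 difference in window cover was 30.4 points (SE 12.4, limma adjusted p = 0.547), and over all 10 libraries KO exceeded WT by 18.4 points (SE 7.67, limma adjusted p = 0.632, exact two-sided permutation p = 0.0833). The authors' deposited table of KO-enriched M2 regions has 2 regions in the Ackr2 body, at 1.54 and 1.44 on the log2 scale (FDR 0.192 and 0.204).

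**Figure D5:**
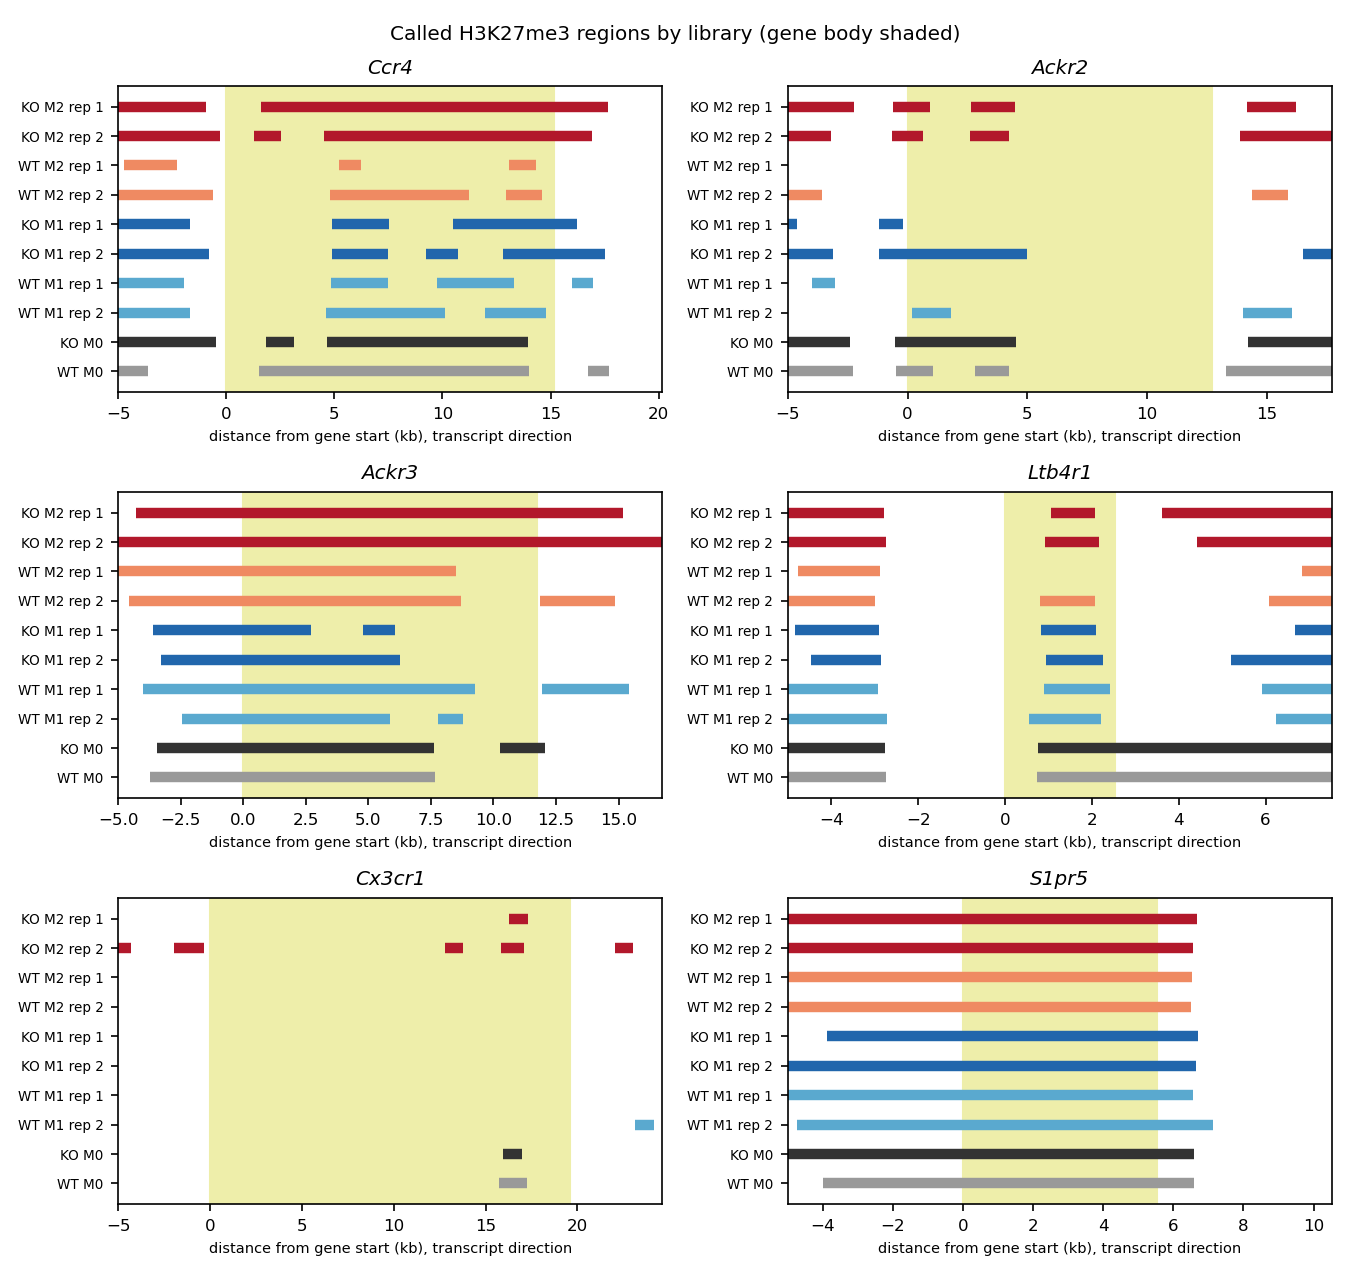
Called regions (bars) in each library over the window of 6 receptors, drawn by distance from the start of the annotated body (kb, in the direction of transcription) with the body shaded; bars are cut at the ends of the window. S1pr5 is under 1 region in every library, Ackr2 has bars across its start in both KO M2 libraries and neither WT M2 library, and Cx3cr1 has bars in the body in KO M2 and M0 alone.

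Cx3cr1 (chr9:120048683-120068296), the fractalkine receptor of monocytes and resident macrophages, had little cover. It was 3.38% and 18.9% in KO M2, 0 and 0 in WT M2, 0 and 0 in KO M1, 0 and 3.38% in WT M1, 3.38% in KO M0 and 5.22% in WT M0. The M2 difference was 11.1 points (SE 4.97, limma adjusted p = 0.596). The authors' deposited table of KO-enriched M2 regions has 1 region in the Cx3cr1 body (chr9:120051488-120051888), at 1.82 on the log2 scale (FDR 0.147). A called region held that place in both KO M2 and both M0 libraries, and none did in the other 6. Without KO M2 replicate 1, whose cover was the lower of the 2, the M2 difference of 18.9 points passed the adjusted threshold (limma adjusted p = 0.0189), in a fit that called 1.96% of all genes higher in KO M2. The single KO M2 library left is there assumed to vary like those of the other groups. Without KO M2 replicate 2 the difference was 3.38 points (limma adjusted p = 0.796).

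Cxcr5 (chr9:44511787-44526444), which guides B cells to follicles, had 5.29% and 9.47% in KO M2, 0 and 0 in WT M2, 0 and 4.06% in KO M1, 0 and 0 in WT M1, 12.5% in KO M0 and 5.09% in WT M0. Regions were thus seen in 4 of 5 KO and 1 of 5 WT libraries, but not all at the same place. Those of both KO M2 libraries and KO M0 lay within chr9:44525627-44528717, and that of KO M1 replicate 2 was at chr9:44524691-44525690. The WT M0 region lay at the opposite end of the window (chr9:44509032-44510286). Bcl9l also reaches into the window. The M2 difference was 7.38 points (SE 1.87, limma adjusted p = 0.332), and the difference over all 10 libraries 5.25 points (SE 1.43, limma adjusted p = 0.632, exact two-sided permutation p = 0.0833). The authors' deposited table of KO-enriched M2 regions has 1 region in the flank of Cxcr5, at 1.29 kb, at 1.49 on the log2 scale (FDR 0.197). The regions of the 4 receptors in that table were chosen there for the difference in M2, so they are no separate evidence of it, and no receptor had a row in the other 3 tables.

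Ccr6 and Ccr8 completed the group. Ccr6 (chr17:8236041-8258519), the receptor of CCL20, had 33.9% and 46.7% in KO M2, 0 and 30.3% in WT M2, 6.80% and 6.94% in KO M1, 7.85% and 24.5% in WT M1, 40.0% in KO M0 and 42.8% in WT M0. KO thus lay above WT in M2 and below it in M1, by 25.2 points (SE 11.7, limma adjusted p = 0.609) and -9.33 points (SE 11.7, limma adjusted p = 1). Ccr8 (chr9:120092133-120094906), a receptor of Th2 and regulatory T cells, had 35.9% and 44.3% in KO M2, 10.3% and 29.6% in WT M2, 10.1% and 22.7% in KO M1, 18.7% and 12.5% in WT M1, 32.1% in KO M0 and 26.7% in WT M0. Its M2 difference was 20.2 points (SE 8.23, limma adjusted p = 0.549). The body of Ccr8 was wholly covered in both KO M2 and both M0 libraries, and by 36.0% to 72.9% in the other 6.

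Within M1, KO and WT differed less in value. No receptor of 22 had an adjusted p under 0.05 in limma, with 0% of all genes called in either direction, and none an unadjusted p under 0.05, against 1.4% of genes higher and 0.913% lower. KO libraries lay wholly above WT in 3 (Cxcr2, Ackr1 and Ccr4), against 14.7% of genes, and wholly below in 2 (Ltb4r2 and Ccr6), against 7.91%. None of these 5 had means at least 20 points apart, against 0.693% of genes above and 0.57% below. Cxcr2, the neutrophil receptor of ELR-positive CXC chemokines, had 18.5% and 29.5% in KO M1 and 5.80% and 5.80% in WT M1. The median difference was 0.600 points over the 22 receptors and 0.026 over all genes.

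The test of whether the KO and WT difference itself differed between M2 and M1 called no receptor, with 0.351% of all genes called higher and 0.0351% lower. At an unadjusted p under 0.05 it gave Ackr3 and Ltb4r1, against 3.54% of genes higher and 1.48% lower. At Ackr3 the KO and WT difference was 26.2 points in M2 and -20.7 in M1, and their difference 46.9 points (SE 17.7, limma adjusted p = 0.951). With only the upper 50% of each region list by score, both signs at Ackr3 turned, to -30.5 points in M2 and 20.2 in M1. Over all 10 libraries with state as a term, no receptor of 24 was called in limma, with 0% of 12069 genes called in either direction. At an unadjusted p under 0.05 it gave Cxcr5 and Ackr2, both higher in KO, against 5.42% of genes, and none lower, against 0.945%. The median difference was 4.42 points over the 24 receptors and 0.647 over all genes.

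Other genes of the pathway were described from 3 lists, and limma called none of them in window cover (M2 against M1, KO against WT in M2, in M1 and over all libraries, and the test between states) or in tags. Of 22 genes of lipid mediator synthesis, 14 were touched in at least 1 library and 10 in all 10, among them Alox5, Alox15 and Ptgs1. Of 26 genes of signal transduction below these receptors, 10 were touched in at least 1 library and 7 in all 10, among them Rgs16 and Rac2. Of 6 ligands outside the chemokine family, 4 were touched in at least 1 library and Hc and Saa3 in all 10. Over all genes, 56.2% were touched in at least 1 library and 32.4% in all 10. Within M2, KO lay wholly above WT in 4 synthesis genes (Ptges2, Ptgds, Ptgis and Spns2) of 14 tested and 4 signalling genes (Grk3, Rgs16, Plcb2 and Rac2) of 8 tested, and 1 ligand (C3) of 4 tested, against 26.4% of all genes. It lay below in Gnai1, against 10.6%. Between states, M2 lay wholly above M1 in 1.07% of all genes and wholly below in 2.11%. Saa3, a ligand of formyl peptide receptors, was the 1 gene of the 3 lists whose M2 and M1 libraries did not overlap, with M2 above. It had 28.1% and 35.4% in KO M2, 16.8% and 29.9% in WT M2, 8.90% and 12.02% in KO M1, 10.4% and 7.81% in WT M1, 36.3% in KO M0 and 26.7% in WT M0.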

How the data were processed

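H3K27me3 chromatin was immunoprecipitated and sequenced from 10 macrophage libraries. DiffBind 2.0.2, HOMER 4.8, deepTools 3.5.1, Bowtie2 2.4.2 and SAMtools 1.10 are listed, with genome build mm10, per the submitters' processing notes. Regions were called in each library separately, without input, from 1000 bp windows that were joined when within 2500 bp, with the FDR set to 0.001, per the file headers. Per the file headers, the signal of a region is its tags scaled to a library of 10 megatags, and each region has a clonal fold ratio (not used). The authors' score was used for ranking alone. The authors' tables give log2 values, p-values and false discovery rates for differential regions, all with p under 0.01 as read from the files, and how they were made is not given in the sources used here.

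Gene bodies came from a RefSeq table (GRCm38.p6). Window cover is the percent of body and 5 kb flanks under regions. Region tags were spread evenly along each region, and sums over called regions move with how much was called. Fits used limma 3.58.1 (trend, robust) in R 4.3.3 with Benjamini-Hochberg adjustment, and exact two-sided permutation tests stood beside them. Within M2 or M1 alone, 2 libraries against 2 cannot give an exact p under 0.333. Intervals were handled with Python 3.11.15, numpy 2.4.6 and pandas 2.3.3. On simulated data for M2 minus M1 (11397 genes), limma recovered 183 of 200 shifts of 50 points, with 9 false calls. The shifted genes were drawn from those of middle mean cover and low SD, with independent normal noise. The largest M2 minus M1 difference among the receptors was 31.9 points (Ackr3), and recovery of differences of that size was not tested. In a separate check, 200 of 200 covered lengths matched a base count. The library-wide shares of tags in regions rest on over 12 megatags, so their counting error is small beside the spread between libraries. This does not extend to single small regions, such as that of 12.1 normalised tags at Cx3cr1 in WT M1 replicate 2. Counting error there was not assessed.

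The receptors and all lists were chosen with earlier results of these data known. Every library's value is given for receptors whose M2 and M1 libraries do not overlap, whose KO and WT libraries do not overlap in M2 or M1 with means at least 20 points apart, or that have a row in the authors' tables; other receptors shown in full were chosen after their values were seen. Alternatives were the body alone, 20 kb flanks, the upper 50% of regions by score, equal covered length, a replicate block, limma without trend, filters on low cover, other tag scalings and each library left out. Exon and intron positions were not analysed here.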

Additional observations from a re-analysis of the deposited data

Results flagged for a closer look

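Single libraries stood apart at 3 receptors by Dixon's ratio of the gap to the range within a state, which chance gives in about 1 of 20 groups of 4, and 30 groups were examined. At Ccr7 the window cover was 23.1% in WT M2 replicate 1, with the other M2 libraries between 78.3% and 88.7%. At Ccr10 it was 53.7% in WT M1 replicate 2, above the other M1 libraries, which lay between 48.8% and 49.1%. At Ltb4r1 it was 32.6% in KO M1 replicate 1, below the other M1 libraries at 41.5% to 41.9%.

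At Ccr6, both KO libraries lay above both WT libraries in M2 and below both in M1. The KO and WT difference in M2 less that in M1 was 34.5 points (SE 16.5), and this difference did not pass the test across all genes (limma adjusted p = 0.951).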

How the results depend on the processing

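No receptor was called in M2 against M1, KO against WT over all libraries, or KO against WT in M1 by limma on window cover under any alternative run. Leaving out single libraries gave 0 to 4 called receptors for KO against WT in M2 (4 without WT M2 replicate 2: Ccr4, Ccr10, S1pr3 and Ltb4r1, with 5.54% of genes called higher; WT M2 replicate 1 is then the only WT library and is assumed to vary like the other groups), 0 to 1 for the test between states (Cx3cr1 without KO M2 replicate 1) and 0 to 5 for tags (5 without WT M2 replicate 1). It gave 0 to 4 receptors with M2 above M1 and 0 to 2 below; in M2 10 to 18 with KO above WT and 0 to 5 below; and in M1 3 to 10 above and 2 to 9 below. For KO above WT in M2 with means at least 20 points apart, single libraries left out gave 2 to 12 receptors, 20 kb flanks 3, and the upper 50% of regions by score 4, with 1 below. With the body alone, M2 lay below M1 in 1 receptor (Ltb4r1), and in M1 KO lay above WT in 1 and below in 5; with 20 kb flanks the counts were 1 and, for KO above WT in M1, 9. With the upper 50% of regions by score, KO lay above WT in M2 in 6 receptors and below in 1, below in M1 in 1, and 3 receptors were touched in all 10 libraries; the differences reversed at Ackr3 (-14.0 for M2 minus M1, -30.5 and 20.2 for KO minus WT in M2 and M1), S1pr3 (-9.19) and Ccr10 (-0.169). Equal covered length gave 1 below in M1 and reversals at Ackr3 and Ccr10 but not S1pr3: -14.0, -30.5 and 20.2 at Ackr3 and -0.169 at Ccr10. Without both WT replicate 1 libraries, an alternative chosen after seeing the data, M2 lay above M1 in 5 receptors and below in 2, KO below WT in 5 in M2 and 9 in M1, and KO above WT in M2 by at least 20 points in 2. The causes of these moves were not tested. Over all genes, calls for KO against WT in M2 numbered 80, 0 with a replicate block or 20 kb flanks, 24 at equal covered length, 31 without trend and 2 with at least 5% mean cover, and 43 to 841 with a library left out; for the test between states 44, and 0 to 212 with a library left out; for M2 against M1 1, and 0 to 57; for KO against WT in M1 0, and 0 to 51. Same-numbered libraries were not shown to pair: the correlations of their deviations on autosomes were 0.027 (KO M2 and M1), 0.165 (WT M2 and M1), -0.111 (M2) and -0.041 (M1). Over all genes, X included, that of WT M2 and M1 was 0.651; both WT replicate 1 libraries had part of X covered. The replicate block left 0 receptors and 0 genes called in M2. Crossing the numbers in M2 also gave 0 receptors and 0 genes. Quantile scaling brought the median tag shift of all genes to 0.015 (log2), against 0.165, and called no receptor.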
